A study of Mus musculus with 4 samples.

Results

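Interferon-γ-activated and interleukin-4-activated mouse macrophages were compared while both carried interleukin-1α (IL-1α). The comparison used 2 of the 4 arrays of the series, the M2 array with IL-1α minus the M1 array with IL-1α, and the 2 vehicle arrays served as the reference for what persisted. All cells came from bone marrow of C57BL/6N mice and became macrophages when grown with 10 ng/mL M-CSF and harvested on day 9. M1 cells received 10 ng/mL interferon-γ for 48 h and no IL-4, and M2 cells received 20 ng/mL IL-4 for 48 h and no interferon-γ. Each phenotype then had 1 culture condition with 10 ng/mL IL-1α for 24 h and 1 with vehicle for 24 h. The number and age of the mice, any pooling of animals, and whether the polarising cytokine was still present with IL-1α are not stated in the labels. The question was which phenotype differences persisted when both phenotypes carried IL-1α.

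Interferon-γ turns on antiviral, microbicidal and antigen presentation genes, many of which carry GAS or ISRE elements in their promoters. IL-4 activates STAT6, which turns on genes of tissue repair, lipid uptake and defence against parasites, with Arg1, Retnla, Chil3 and Mrc1 as the classic mouse markers. IL-1α binds the type I IL-1 receptor and signals through MyD88 and IRAK kinases to NF-κB, whose targets include chemokines, adhesion molecules and its own inhibitors.

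Each group held 1 array, so no value has a standard deviation, no difference has a replicate check and no p-value is given. Levels are log2 signals as deposited, differences are M2 minus M1 in log2 units, and a difference of 1 is 2-fold. A gene was counted when its difference reached 1 and at least 1 of the 2 arrays reached a floor of 7.617, which is the median over every gene and array. A signal under the floor was not shown to be above background, so a difference that starts there has an uncertain size. The M1 pair (IL-1α against vehicle) had a spread of 0.115 (SD over genes) and the M2 pair one of 0.178. Across the M1 and M2 arrays with IL-1α the spread was 0.91, and arrays of different phenotypes correlated at 0.9617 to 0.9658 against 0.9969 and 0.9958 within the M1 and M2 pairs.

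Under IL-1α the phenotypes stayed far apart. Of 10479 genes at the floor, 854 (8.15%) had a signal in M2 that exceeded the M1 signal 2-fold or more, and 635 (6.06%) had the reverse. Between the vehicle arrays, 737 of 10489 genes (7.03%) were higher in M2 and 716 (6.83%) lower. The larger differences were also common under IL-1α: 258 genes were at least 4-fold higher and 216 at least 4-fold lower, and 30 and 53 passed 16-fold. The median over all genes at the floor was 0.03, so the array pair as a whole was nearly centred. In bulk samples such as these, fewer cells of a type and less RNA per cell cannot be told apart.

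Most phenotype differences seen without IL-1α were seen again with it. Of the 737 genes higher in M2 under vehicle, 695 (94.3%) were higher under IL-1α, where they made up 81.4% of the higher genes. Of the 716 genes lower in M2 under vehicle, 603 (84.2%) were lower under IL-1α, where they made up 95.0% of the lower genes. These pairs share no array, and across 10625 genes the differences correlated at r = 0.975 (Spearman's rho = 0.934), as a description over genes that share the same 4 arrays. Among the strongest differences persistence was almost complete. All 222 genes at least 4-fold higher in M2 under vehicle stayed at least 2-fold higher, and 249 of the 250 at least 4-fold lower stayed at least 2-fold lower. The exception was Nfkbie, which encodes an inhibitor of NF-κB.

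Genes that left or joined a list mostly lay near the threshold. Of the 113 genes lower in M2 only under vehicle, 91 had a vehicle difference smaller than 1.25 in size and 86 kept a difference of over 0.75 in the same direction. Of the 159 genes higher in M2 only under IL-1α, 132 had a difference under 1.25 and 138 had already differed by over 0.75 under vehicle. A smaller set of 42 genes was higher only under vehicle and 32 were lower only under IL-1α. A single gene, the neutrophil chemokine Cxcl2, was called in opposite directions.

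The direction of the shift was uneven. Of the 716 genes lower in M2 under vehicle, 542 had a smaller difference under IL-1α (median change of size -0.16), whereas 221 of the 737 higher genes did (median change 0.08). Over all 10625 genes at the floor in either pair, the difference moved towards M2 by a median of 0.06. That is close in size to the 0.08 of the higher genes. The difference moved by at least 0.5 towards M2 in 180 genes and towards M1 in 37, and by at least 1 in 34 genes and in 0. Over the lower genes, the median change from vehicle to IL-1α was 0.15 in M2 and 0.02 in M1, and over the higher genes it was 0.04 and -0.03. This unevenness shrank with a further quantile normalisation, which left 90.8% of the higher and 88.0% of the lower vehicle genes in place, with median changes of size of 0.02 and -0.10.

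**Figure D1:**
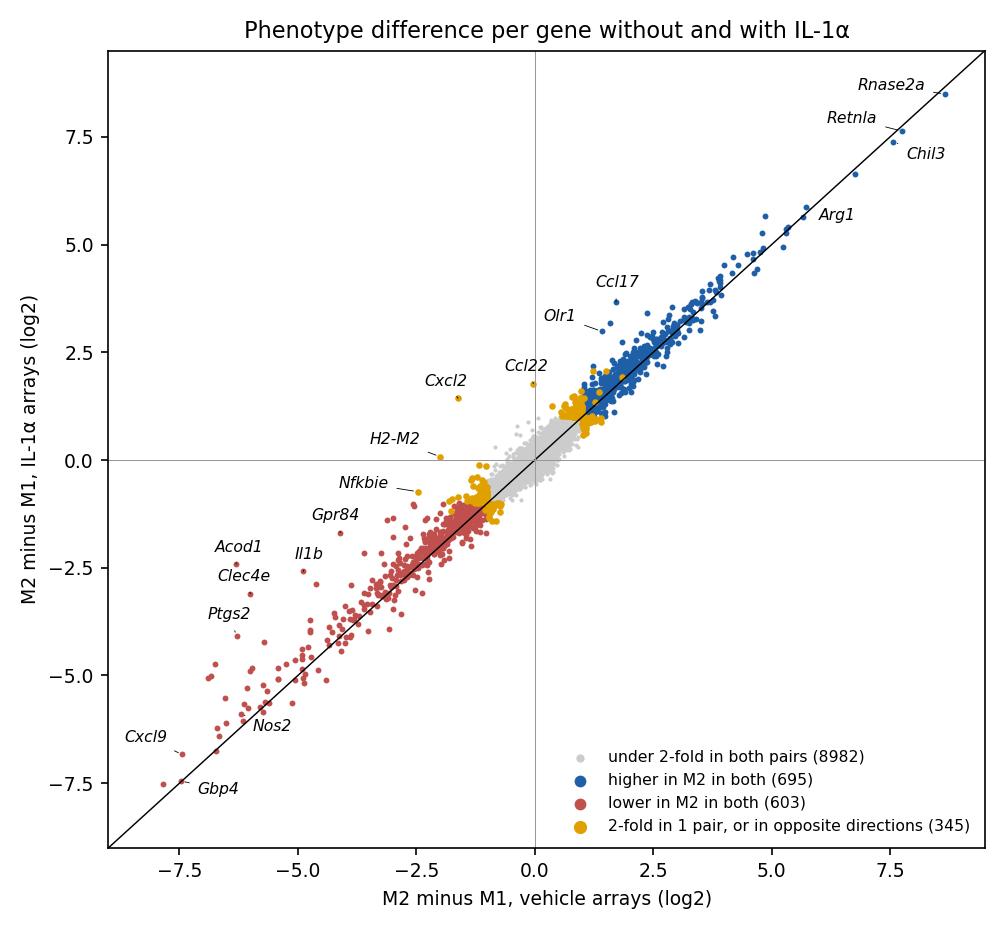
M2 minus M1 differences (log2) under vehicle on the x axis and under IL-1α on the y axis, with 1 point for each of 10625 genes at the floor and the diagonal of equal differences as a line. Blue and red points passed 2-fold in both pairs (695 and 603), and orange points in 1 pair or in opposite directions. Points follow the diagonal (r = 0.975), and those farthest above it on the left side, such as Acod1, are genes whose deficit in M2 was smaller under IL-1α.

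The 4 marker genes given for the phenotypes were also the most extreme named genes at each end of this comparison, so their values are a description and no check of the labels. Rnase2a, an eosinophil-associated ribonuclease, read 5.32 in M1 with IL-1α and 13.81 in M2 with IL-1α, which made it the gene most raised in M2 (difference 8.49, 361-fold). Its vehicle arrays read 5.20 and 13.86. Retnla, the secreted resistin-like protein of IL-4-activated macrophages, read 4.998 in M1 and 12.63 in M2 (difference 7.63, 199-fold). On the interferon side, the guanylate-binding GTPase Gbp4 read 13.47 in M1 and 6.02 in M2 (difference -7.45, 175-fold higher in M1). Cxcl9, which attracts activated T cells through CXCR3, read 13.84 in M1 and 7.003 in M2 (difference -6.83, 114-fold higher in M1). All 4 genes were under the floor in the phenotype where they were low, and each differed by less than 0.75 between its IL-1α and vehicle contrasts.

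**Figure D2:**
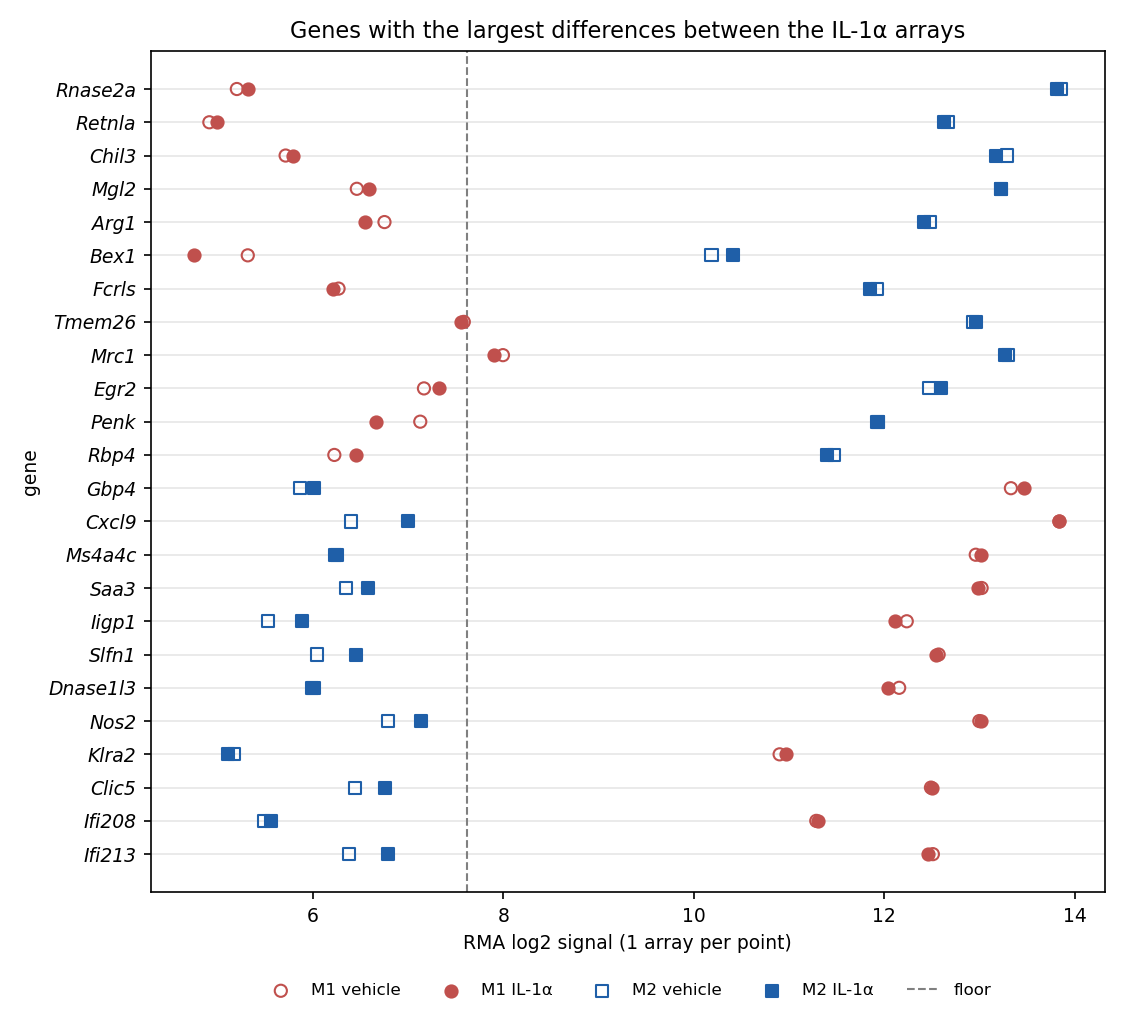
Log2 signal on each of the 4 arrays, 1 point per array, for the genes with the largest differences under IL-1α, with the floor of 7.617 as a line. For Rnase2a the M2 arrays read 13.86 and 13.81 against 5.20 and 5.32 for the M1 arrays, and Gbp4 runs the other way.

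After Rnase2a and Retnla, the genes most raised in M2 under IL-1α included several that define IL-4 activation. The chitinase-like protein Chil3 read 5.80 in M1 and 13.18 in M2 (difference 7.38), and the galactose-type lectin Mgl2 read 6.59 and 13.23 (difference 6.64). Arg1, which splits arginine into ornithine and urea, read 6.55 and 12.41 (difference 5.86). The mannose receptor Mrc1 is one of the few leading genes measured above the floor in both phenotypes, at 7.91 and 13.27 (difference 5.36). So was the macrophage elastase Mmp12, at 8.76 and 13.67 (difference 4.92). The remaining genes among the 20 highest were Bex1, Fcrls, Tmem26, Egr2, Penk, Rbp4, Lipn, Tmem267, Irf4, Ccl24, Dcstamp, Rras2 and Lrrc32, with differences from 5.66 for Bex1 to 4.53 for Lrrc32. Among them Penk encodes the opioid precursor proenkephalin, Rbp4 a retinol carrier and Lrrc32 the protein that holds latent TGF-β at the cell surface.

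The genes most raised in M1 under IL-1α were led by interferon-induced families. The clone-named BC023105, which the naming rule leaves out, had a difference of -7.51. After Gbp4 and Cxcl9 came Ms4a4c, a tetraspanning membrane protein, at 13.01 in M1 and 6.25 in M2 (difference -6.76). The acute-phase protein Saa3 read 12.98 and 6.58 (difference -6.40). The immunity-related GTPase Iigp1 read 12.11 and 5.89 (difference -6.22). Nos2, the inducible nitric oxide synthase that uses the same arginine as Arg1, read 13.02 and 7.13 (difference -5.89, 59.3-fold higher in M1). Il12b, the shared subunit of IL-12 and IL-23, read 11.78 and 6.15 (difference -5.63), which was the same to 0.02 as under vehicle (-5.61). Only Ifit2 (-5.29) and Irf7 (-5.22) of the 20 lowest genes were at the floor on both arrays. The others ran from Slfn1 (-6.09) to Cfb (-5.17) and included Dnase1l3, Klra2, Clic5, Ifi208, Ifi213, Gbp11, Ifit3b, Cd69 and Ifi206. Members of the Gbp, Ifi200, Ifit and Schlafen families are similar in sequence, so a probe set may read more than 1 member.

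The sequences just upstream of 5 genes are shown as examples that were picked by hand, not by a rule. They come from a persistent M2 gene (Retnla), M1 genes whose difference narrowed but stayed large (Gbp5, Cxcl10) and the gene that crossed (Cxcl2). The last comes from the gene that dropped from 4-fold to under 2-fold (Nfkbie). Each is the 250 bases before the start in RefSeq (build GRCm38.p6), at chr16:48842359-48842608 on the plus strand for Retnla, chr3:142496684-142496933 on the plus strand for Gbp5, chr5:92348890-92349139 on the minus strand for Cxcl10, chr5:90903649-90903898 on the plus strand for Cxcl2 and chr17:45555450-45555699 on the plus strand for Nfkbie. The sequences run 5′ to 3′ towards the start, and capitals mark a match on either strand to the ISRE core (GAAA, any 2 bases, GAAA), the GAS element (TTC, any 3 bases, GAA), the STAT6-type element (TTC, any 4 bases, GAA) or the NF-κB consensus.
Retnla: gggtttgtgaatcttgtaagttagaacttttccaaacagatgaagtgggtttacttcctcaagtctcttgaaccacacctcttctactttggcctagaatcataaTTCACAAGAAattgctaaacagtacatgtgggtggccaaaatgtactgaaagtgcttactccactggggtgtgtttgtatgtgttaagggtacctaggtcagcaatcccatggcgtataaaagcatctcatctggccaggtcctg
Gbp5: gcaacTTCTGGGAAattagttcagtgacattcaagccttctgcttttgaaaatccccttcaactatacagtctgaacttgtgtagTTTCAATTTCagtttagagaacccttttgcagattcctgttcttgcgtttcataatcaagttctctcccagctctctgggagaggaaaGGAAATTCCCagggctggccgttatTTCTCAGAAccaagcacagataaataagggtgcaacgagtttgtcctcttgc
Cxcl10: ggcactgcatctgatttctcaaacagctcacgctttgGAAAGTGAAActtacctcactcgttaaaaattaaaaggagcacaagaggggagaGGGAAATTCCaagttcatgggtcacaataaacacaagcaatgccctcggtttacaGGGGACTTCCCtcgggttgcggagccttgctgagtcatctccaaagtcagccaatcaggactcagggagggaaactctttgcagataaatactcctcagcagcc
Cxcl2: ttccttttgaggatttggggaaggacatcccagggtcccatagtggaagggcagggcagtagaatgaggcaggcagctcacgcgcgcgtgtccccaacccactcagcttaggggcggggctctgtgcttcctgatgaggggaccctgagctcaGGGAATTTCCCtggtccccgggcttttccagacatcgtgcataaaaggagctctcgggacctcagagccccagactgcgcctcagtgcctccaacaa
Nfkbie: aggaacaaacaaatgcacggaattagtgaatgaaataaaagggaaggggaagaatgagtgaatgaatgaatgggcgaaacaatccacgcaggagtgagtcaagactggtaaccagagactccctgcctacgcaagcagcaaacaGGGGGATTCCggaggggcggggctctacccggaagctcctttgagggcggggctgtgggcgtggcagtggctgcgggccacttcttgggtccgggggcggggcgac

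In Retnla the capitals are a STAT6-type match that ends 136 bases before the start. In Gbp5 they are a GAS match (245 to 237 bases before the start), an ISRE match (165 to 156), an NF-κB match (77 to 68) and a second GAS match (52 to 44). Cxcl10 holds an ISRE match (213 to 204) and NF-κB matches at 159 to 150 and, as an overlapping pair, at 104 to 94. Cxcl2 holds an overlapping pair of NF-κB matches at 97 to 87, and Nfkbie holds 1 at 106 to 97. A match describes the letters and does not show that a factor binds there. Matches in these picked genes do not give the share in a group. Among genes lower under vehicle that narrowed by at least 1, the NF-κB consensus was in 6 of 20 windows (30.0%).

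Over 32851 RefSeq windows of this length, the ISRE core was found in 2.98%, GAS in 7.02%, the STAT6-type element in 5.85% and the NF-κB consensus in 7.25%. For genes at the floor under IL-1α these shares were 2.82%, 5.77%, 4.66% and 8.88%. The ISRE core was in 68 of 615 windows (11.1%) of genes lower in M2 in both pairs, and in 16 of 41 windows (39.0%) of genes at least 16-fold lower under IL-1α. It was in 20 of 729 windows (2.74%) of genes higher in M2 in both pairs. The STAT6-type element was in 6 of 27 windows (22.2%) of genes at least 16-fold higher in M2, but also in 7 of 41 (17.1%) of those at least 16-fold lower. Among genes higher in M2 in both pairs it was in 45 of 729 windows (6.17%), near the share over all windows. GAS was in 47 of 615 windows (7.64%) of genes lower in both pairs and in 45 of 729 (6.17%) of genes higher in both. It was in 4 of 41 (9.76%) of genes at least 16-fold lower. The NF-κB consensus was in 6 of 20 windows (30.0%) of genes lower under vehicle that narrowed by at least 1. It was in 42 of 443 windows (9.48%) of genes lower in both pairs whose difference narrowed by under 0.25 or widened. The ISRE core was in 5 (25.0%) and 42 (9.48%) of the same windows, so both patterns were more frequent in the narrowed group. The NF-κB consensus was also in 9 of 41 windows (22.0%) of genes at least 16-fold lower under IL-1α. These shares are descriptions over small groups with no test, some genes have more than 1 window, and family members can share sequence by descent.

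On the M2 side, IL-4-linked secreted proteins were mostly higher with IL-1α present. Of 10 at the floor, 9 passed 2-fold upward in M2 and 0 passed it downward, with a median of 4.27 against 0.03 for all genes (vehicle median 4.05). The chitinase-like Chil4 read 5.26 in M1 and 9.37 in M2, and the eosinophil chemokine Ccl24 read 6.90 and 11.61. Fibronectin (Fn1) read 8.85 and 13.29, above the floor in both phenotypes. Of the 15 IL-4-linked surface receptors at the floor, 10 were higher and 1 lower, with a median of 2.93. Under vehicle 12 were higher and 2 lower, with a median of 1.93. Gene by gene the difference hardly moved (median change -0.04), and its size was smaller under IL-1α in 9 members and larger in 6. The C-type lectin Clec10a read 6.44 in M1 and 10.78 in M2, and the PD-1 ligand Pdcd1lg2 read 6.98 and 11.08. The VEGF receptor Flt1 (difference 3.67) and the transferrin receptor Tfrc (3.62) were also higher in M2. The member that was lower under IL-1α was Il13ra1, a receptor chain for IL-4 and IL-13, at 10.40 in M1 and 8.08 in M2.

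Transcription factors and feedback genes of the IL-4 pathway were divided. Of 14 IL-4-linked factors at the floor, 7 were higher in M2 and 1 lower (median 0.92 in both pairs). Egr2 read 7.32 in M1 and 12.60 in M2, Irf4 read 6.15 and 10.94, and Myc read 6.99 and 11.17. Bhlhe40 (3.32), the lipid-sensing nuclear receptor Pparg (2.23) and Tfec (2.12) were higher as well. Of 12 genes of IL-4 receptor signalling, 2 were higher and 5 lower (median -0.95). The higher ones were Cish (difference 3.52) and Socs2 (3.27), both cytokine-induced inhibitors of JAK-STAT signalling, although the probe sets of Socs2 ranged from 1.41 to 5.14. Other members of that inhibitor family ran the opposite way, with Socs1 at -1.56 and Socs3 at -1.36. Of 10 arginine and polyamine enzymes, 3 were higher and 0 lower: Arg1, the creatine synthesis enzyme Gatm (2.66) and the spermidine synthase Srm (1.65).

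On the M1 side, interferon-induced families stayed lower in M2 without exception among the measured members of 2 lists. All 10 guanylate-binding proteins and immunity-related GTPases, which attack the vacuoles of intracellular pathogens, were at least 2-fold lower in M2 under IL-1α (median -4.91, vehicle -5.10). All 27 type I interferon-stimulated antiviral genes were lower too (median -3.45, vehicle -3.61). Among these, Ifit3 read 13.48 in M1 and 8.57 in M2, and Ifit1 read 13.25 and 8.42. Mx2 read 10.90 and 6.17. The difference was smaller under IL-1α than under vehicle in 24 of the 27 antiviral genes and 8 of the 10 GTPases. Among all 716 genes lower in M2 under vehicle, the difference was smaller in 542, a similar share. Of 7 Schlafen genes, 6 were lower (median -2.09). Of the 4 genes at the floor in the list of Ifi200 DNA sensors, 3 were lower, among them Ifi205 at 13.39 in M1 and 8.34 in M2. The relatives Ifi208 (-5.74), Ifi213 (-5.67) and Ifi206 (-5.35), which are not in that list, were lower by more.

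The signalling chain above these families differed less. Of 14 genes of interferon-γ signalling at the floor, 0 were higher and 5 lower in M2 (median -0.43). Irf7, the main amplifier of type I interferon, read 13.70 in M1 and 8.48 in M2, and Stat2 read 12.82 and 10.37. Irf1 (-1.64) and Irf8 (-1.33) were lower by smaller amounts. The receptor chains Ifngr1 (0.70) and Ifngr2 (0.17), which lie outside the naming rule, were under 2-fold.

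Antigen presentation genes leaned towards M1 in both classes. Of 14 genes of MHC class I presentation and the immunoproteasome, 7 were lower in M2 and 0 higher (median -0.91). The class I transactivator Nlrc5 had a difference of -2.92, the peptide transporters Tap1 and Tap2 read -2.65 and -2.03, and the immunoproteasome subunits Psmb9 and Psmb8 read -1.94 and -1.67. Of 10 class II genes, 2 were lower (median -0.50). H2-Ab1 read 13.44 in M1 and 12.29 in M2, and H2-Oa read 8.04 and 6.71. The invariant chain Cd74, outside the naming rule, read 13.55 and 13.33.

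Effector enzymes and cytokines kept their M1 bias. Of 10 microbicidal and metabolic effectors at the floor, 7 were lower in M2 and 0 higher (median -1.33). Besides Saa3 and Nos2 these included the iron-binding lipocalin Lcn2 (-2.44) and the mitochondrial superoxide dismutase Sod2 (-1.49). Of 14 cytokine genes at the floor, 13 were lower and 1 higher (median -2.12). The death ligand Tnfsf10 read 10.45 in M1 and 5.83 in M2. The T cell and NK cell growth factor Il15 read 11.63 and 9.13. The higher one was the macrophage growth factor Csf1, at 8.92 in M1 and 10.16 in M2. Of 9 CXCR3 ligands and monocyte chemokines, 7 were lower and 0 higher (median -2.42, vehicle -3.18), with Cxcl11 at 11.48 in M1 and 6.42 in M2.

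Several inflammatory genes were among those that narrowed most. Acod1, which makes the metabolite itaconate, read 13.75 and 7.45 in M1 and M2 with vehicle and 13.76 and 11.35 with IL-1α. Its difference went from -6.31 to -2.42. Clec4e, a receptor for mycobacterial glycolipid and dead cells, read 12.60 and 6.60 with vehicle and 12.76 and 9.66 with IL-1α. For both genes the M1 arrays differed by under 0.25, while the M2 array with IL-1α was higher than that with vehicle. The fatty acid receptor Gpr84 went from -4.10 to -1.69, and the prostaglandin synthase Ptgs2 from -6.29 to -4.09. In M2 with vehicle Acod1, Clec4e, Gpr84 (7.12) and Ptgs2 (7.22) were all under the floor. The sizes of their vehicle differences, and so of the narrowing, are uncertain.

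Cytokines of the same response followed. Il1b read 11.73 and 6.85 with vehicle and 11.99 and 9.41 with IL-1α, so that its difference went from -4.89 to -2.59. Il1a, the gene of the added cytokine itself, went from -4.61 to -2.89. Tnf read 12.73 and 9.60 with vehicle and 12.90 and 11.50 with IL-1α (from -3.12 to -1.40). Among chemokines, Cxcl10 went from -6.83 to -5.02 and Ccl5 from -5.72 to -4.23, so both remained over 16-fold lower in M2. Gbp5 (-6.74 to -4.74) and Ifi205 (-6.91 to -5.06) narrowed more than other members of their interferon-induced families. In M2 with vehicle Il1b, Il1a (6.92), Cxcl10 (6.95), Gbp5 (5.73) and Ifi205 (6.44) were under the floor, so how far they narrowed is uncertain. Tnf and Ccl5 (8.45) were above it. In M1, Acod1, Ptgs2, Cxcl10 and Ccl5 lay within 1 log2 unit of the highest signal of an array (14.40 to 14.47), and whether this limited their M1 readings was not tested.

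**Figure D3:**
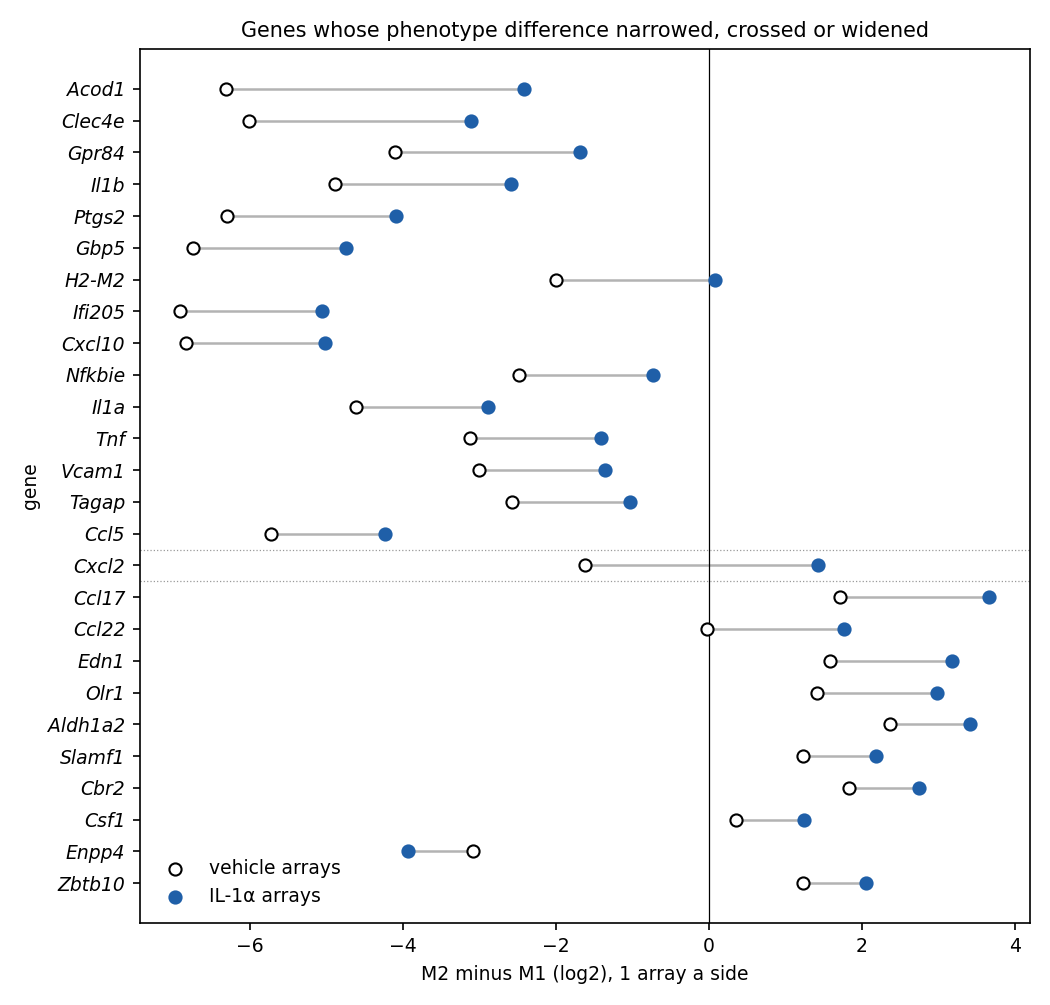
M2 minus M1 difference (log2) under vehicle and under IL-1α, joined by a line for each gene, for the 15 genes that narrowed most and the 10 that widened most. Acod1 goes from -6.31 to -2.42, Ccl17 from 1.71 to 3.67, and Cxcl2, shown with them, passes 0 from -1.62 to 1.43.

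Fewer NF-κB genes passed 2-fold under IL-1α. Of 25 subunits, targets and feedback genes at the floor, 15 were lower in M2 under vehicle and 9 under IL-1α, and the median went from -1.22 to -0.73. The difference was smaller in size in 20 of the 25, against 5106 of the 10625 genes at the floor in either pair. Among the 716 genes lower in M2 under vehicle it was smaller in 542, but only 15 of the 25 belonged to that set. The median change from vehicle to IL-1α was 0.68 in M2 and 0.10 in M1, against 0.05 and -0.00 for all genes. Nfkbie read 11.05 and 8.58 with vehicle and 11.14 and 10.40 with IL-1α, so its difference went from -2.47 to -0.73. The adhesion molecule Vcam1 went from -3.00 to -1.35 and Icam1 from -2.99 to -1.79. The adaptor Traf1 (-2.89) and the chemerin-binding receptor Ccrl2 (-2.95) remained over 4-fold lower in M2. Tagap, a GTPase-activating protein outside the list, went from -2.57 to -1.02.

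The IL-1 pathway itself was unequal between the phenotypes. Of 14 genes of the IL-1 receptor system and inflammasome at the floor, 7 were lower in M2 and 1 higher (median -0.91). The higher one was the receptor accessory chain Il1rap, which the IL-1 receptor needs to signal, at 7.73 in M1 and 9.34 in M2. The receptor antagonist Il1rn read 12.90 and 10.51, and the IL-18 binding protein Il18bp had a difference of -3.05. The inflammasome sensor Nlrp3 read 10.46 and 8.51, and its difference narrowed from -2.72 to -1.96, with an M2 vehicle signal under the floor (7.51). Irak3, an inhibitor of IL-1 signalling, stood at -1.47 and the inflammatory caspase Casp4 at -1.39.

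Some genes changed sides or met. Cxcl2, which attracts neutrophils, read 8.33 in M1 and 6.72 in M2 with vehicle but 8.46 and 9.90 with IL-1α, so the difference went from -1.62 to 1.43. Its M2 signal with vehicle was under the floor. The class I-like gene H2-M2 read 10.15 and 8.15 with vehicle and 10.09 and 10.17 with IL-1α, so a gap of about 4-fold (-2.00) became 0.079. In both genes the M1 arrays differed by under 0.25. Of the 7 neutrophil and inflammatory chemokines at the floor, 3 were higher in M2 under IL-1α: Cxcl2, Ccl6 (2.10) and the platelet factor Pf4 (1.82). Ccl3 (-0.08) and Ccl4 (-0.31) were near even.

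Other M2 genes stood out more with IL-1α than without. Ccl17 and Ccl22, the ligands of CCR4 on regulatory and type 2 helper T cells, were among the 5 genes that widened by at least 1. Ccl17 read 7.20 and 8.91 in M1 and M2 with vehicle and 7.14 and 10.80 with IL-1α (from 1.71 to 3.67). Ccl22 read 9.00 and 8.97 with vehicle, with no phenotype difference (-0.03), and 8.88 and 10.65 with IL-1α (1.77). The vasoconstrictor peptide gene Edn1 went from 1.58 to 3.18 and the oxidised LDL receptor Olr1 from 1.42 to 2.99. The retinoic acid-making enzyme Aldh1a2 went from 2.37 to 3.41. Slamf1, Cbr2, Csf1 and Zbtb10 widened by 0.5 to 1 towards M2, and Enpp4 widened towards M1, from -3.08 to -3.93. Both M1 signals of Ccl17, Edn1, Olr1, Aldh1a2, Cbr2 and Zbtb10 fell short of the floor, as did both M2 signals of Enpp4. The amount of widening is therefore not well known for these genes. Ccl22, Slamf1 and Csf1 exceeded the floor on all 4 arrays.

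Receptors for microbes and for other cells mostly kept their vehicle pattern. Of 18 Toll-like and pattern recognition receptors at the floor, 10 were lower in M2 and 1 higher in each pair (median -1.24, vehicle -1.51). The DNA receptor Tlr9 read 12.73 in M1 and 8.62 in M2 and the scavenger receptor Marco 10.18 and 7.06. The peptidoglycan sensor Nod1 read 11.84 and 8.76. Of 12 costimulatory and checkpoint molecules, 8 were lower and 2 higher (median -1.20), with Cd86 at 11.48 and 7.13, while the difference of Cd40 narrowed from -3.60 to -2.16. The higher ones were Pdcd1lg2 and Slamf1.

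Chemokine receptors, Fc receptors and scavenger receptors ran both ways within each list. Of 7 chemokine receptors, Ccr3 (2.43) and Cxcr4 (1.72) were higher in M2, and Ccrl2, Ccr7 (-1.58) and Cmklr1 (-1.34) were lower. Among 10 Fc and complement receptors, the inhibitory Fcgr2b (1.52) and the integrin Itgax (2.93) were higher, whereas the activating Fcgr1 (-2.89) and Fcgr4 (-1.13) were lower. Among 11 scavenger and efferocytosis receptors 4 were higher, Trem2 (1.59) and Cd5l (2.18) among them, and 4 were lower, including Axl (-1.98) and Mertk (-1.12). Of 8 complement components, 5 were lower and 0 higher (median -1.55), led by Cfb, with C1qa at -2.37 and the C1 inhibitor Serping1 at -1.92. Of 15 receptors for metabolites, purines and lipids, 2 were higher in M2, P2ry1 (3.02) and Gpr183 (2.30), and 6 were lower, among them the nicotinic acid receptor Hcar2 (-3.10).

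Many lipid synthesis genes were higher in M2. Of 18 sterol synthesis genes at the floor, M2 exceeded M1 by 2-fold or more in 16 under IL-1α and was lower in 0 (median 2.09, vehicle 1.78), and 2 of the 18 had a smaller difference than under vehicle, beside 221 of the 737 genes higher in M2 under vehicle. Idi1 read 6.97 in M1 and 10.65 in M2, and Sqle, an oxygenase of the pathway, read 8.41 and 11.42. Cyp51 read 7.85 and 10.83. Of 20 genes of fatty acid synthesis and lipid handling, 9 were higher and 1 lower (median 0.96). The desaturases Scd1 (4.22), Fads2 (3.80) and Scd2 (2.79) and the fatty acid carrier Fabp4 (2.82) led, and the sterol-sensing receptor Nr1h3 (-1.60) was the lower one.

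Energy metabolism differed by smaller amounts. Of 18 glycolysis and hypoxia genes at the floor, 5 were lower in M2 and 0 higher (median -0.53). Pfkfb3, which makes the activator of phosphofructokinase, read 11.70 in M1 and 8.63 in M2, and the lactate exporter Slc16a3 read 11.66 and 9.69. Vegfa (-1.53) and Pfkl (-1.47) were lower too. Of 21 genes listed for the TCA cycle and respiratory chain, 4 were higher and 1 lower (median 0.38). The higher ones were Idh2 (1.76), Fh1 (1.16), Idh1 and the iron-regulated aconitase Aco1 (1.27), and the lower one was cytochrome c (Cycs, -1.05). Idh1 and Aco1 encode cytosolic enzymes, so their values do not describe the TCA cycle itself.

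Cell cycle genes were higher in M2. Of 20 mitosis genes at the floor, M2 exceeded M1 by 2-fold or more in 19 and was lower in 0 (median 1.71, vehicle 1.66). The cyclin Ccna2 read 7.02 in M1 and 10.68 in M2, and Ccnb2 read 7.57 and 10.82. The kinase Plk1 read 7.37 and 10.20. Of 19 DNA replication genes, 12 were higher and 1 lower (median 1.23), with the ribonucleotide reductase subunit Rrm2 at 7.58 and 10.43 and the helicase subunit Mcm7 at 8.09 and 10.20. The lower one was the cyclin Ccne1 (-1.31), which lies outside the naming rule.

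Matrix and lipid mediator genes differed in both directions, and most antioxidant and iron genes were under 2-fold. Of 12 matrix proteases and inhibitors at the floor, 5 were higher and 2 lower (median 0.67). Mmp9 read 8.34 in M1 and 11.90 in M2, whereas Mmp14 read 11.02 and 8.04. Of 13 eicosanoid genes, 2 were higher, the prostanoid receptors Ptgir (1.64) and Ptger2 (1.36), and 4 were lower, Ptgs2, Ptges (-2.67), Pla2g4a (-2.46) and Pla2g7 (-1.52). Of 15 antioxidant and iron genes, 11 were under 2-fold. The metallothionein Mt1 (1.08) was just over the threshold as the 1 higher gene. The other 3 were lower, with the copper-dependent ferroxidase Cp at 10.19 in M1 and 6.39 in M2. Over all genes at the floor, 8.15% were higher and 6.06% lower.

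**Figure D4:**
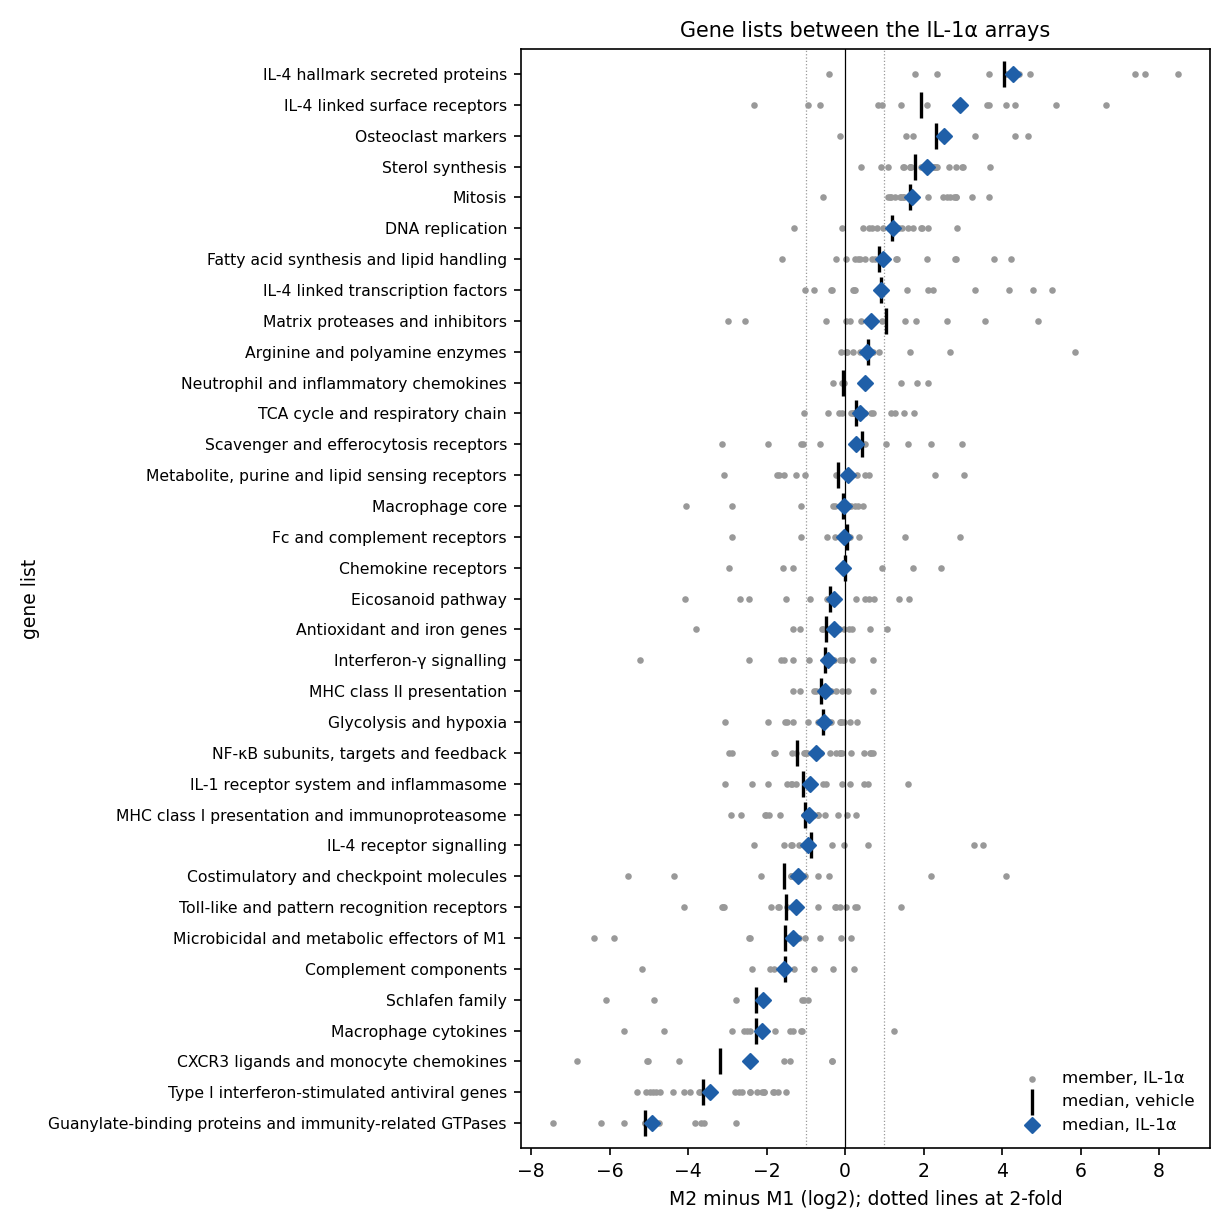
Median M2 minus M1 difference (log2) of each gene list under vehicle and under IL-1α, over members at the floor. Lists of interferon-induced genes lie lowest (GTPases at -4.91 under IL-1α), IL-4-linked secreted proteins highest (4.27), and the NF-κB list moves from -1.22 to -0.73.

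Most markers of macrophages were high in both phenotypes. Of 12 core markers, 9 were under 2-fold under IL-1α, among them Adgre1 at 13.53 in M1 and 13.21 in M2, Csf1r at 12.67 and 13.12 and Cd68 at 13.41 and 13.74. The other 3 were lower in M2: Aif1, Fcgr1 and Mertk. Aif1 read 11.06 in M1 and 6.99 in M2 (-4.06), which put it under the floor in M2. The summed linear signal of the list was 106623 in M1 and 98799 in M2. Of 7 osteoclast markers at the floor, 6 were higher in M2, with Dcstamp (4.66), which drives cell fusion, the integrin subunit Itgb3 (4.34) and the protease Ctsk (3.32) in front. The remaining one, the transcription factor Nfatc1, outside the naming rule, was under 2-fold (-0.13). The summed signal of the osteoclast list was 6122 in M1 and 30310 in M2, where Atp6v0d2 (13.83) was the brightest member. Calcr and Oscar were under the floor on all 4 arrays.

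Markers of other blood and tissue cells were mostly dim. Of 12 neutrophil markers, 6 reached the floor under IL-1α and 2 were higher in M2, Ngp (7.51 in M1 and 9.93 in M2) and Ltf (6.98 and 8.01). The brightest, Csf3r, was under 2-fold and leaned the other way (11.11 in M1 and 10.65 in M2). Elane, Prtn3, Camp and Ly6g were under the floor on all 4 arrays, and the summed signal was 3447 in M1 and 4101 in M2. Of 10 dendritic cell markers, 4 reached the floor and 3 were lower in M2, with Clec9a at 9.59 and 5.71 and Xcr1 at 8.24 and 6.38. The remaining one, Zbtb46, was under 2-fold and leaned towards M2 (7.43 and 7.89). The summed signal of the dendritic cell list was 2389 in M1 and 1150 in M2, and Flt3 was under the floor throughout. Of 5 eosinophil markers, Ccr3 was higher in M2 (7.43 and 9.86) and Siglecf was under 2-fold, while Prg2, Epx and Il5ra were under the floor on all 4 arrays (summed signal 525 in M1 and 1312 in M2).

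Of 8 mast cell and basophil markers only Hdc reached the floor (summed signal 733 in M1 and 608 in M2), and of 8 lymphocyte markers only Cd79b (686 and 781). Of 12 stromal and endothelial markers 6 reached it and 1, Kdr, was lower in M2 (-1.42), with summed signals of 2663 and 3041. Of 4 erythroid and platelet markers measured only Itga2b reached it (571 and 506). The part of other cells in the differences described was not tested.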

How the data were processed

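Total RNA of 4 samples was amplified, labelled with biotin and hybridised to mouse gene arrays, 1 sample per array. Whether the samples came from separate cultures is not stated in the labels. Per the submitters' processing notes, the authors ran Affymetrix Expression Console with RMA, and the deposited log2 values are its output per probe set. Software versions are not given in the sources used here. The log base is not stated either, and the values fit log2. RMA in general gives arrays a common distribution, so that a global difference in RNA output is lost and dim probe sets show compressed differences. The number of arrays limits the precision, and scanner files were not used here.

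Of 35556 rows, 21789 carried 1 gene in the platform annotation (21698 matched a RefSeq table of assembly GRCm38.p6), 1621 several and 12146 none. Where a gene had several probe sets (999 of 19938 genes) their mean was taken, and 10625 genes reached the floor on at least 1 array. Differences, counts and medians were computed in Python 3.11.15 with pandas 2.3.3 and numpy 2.4.6, and tested on simulated data. With 1 array per group no test was run.

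The comparison, its members and 43 gene lists (620 symbols, 563 measured by a probe set with 1 gene) were chosen with earlier results of these data known, so no list is independent evidence of its direction. Genes named were the 4 markers, the 20 highest and 20 lowest, up to 6 members of each list with the largest differences, the 15 that narrowed and 10 that widened most, and those that crossed by at least 1.5-fold on both sides, leaving out predicted genes, clones, small RNAs and receptor segments or families. A member with a central role outside that rule is said to be so, and dim defining markers of other cells are named as such. Promoter windows were searched on both strands by exact pattern. Alternatives were thresholds of 1.5-fold and 4-fold, omitting the floor, raising it to the 75th percentile, both arrays at the floor, loess centring, a further quantile normalisation and the brightest probe set.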

Additional observations from a re-analysis of the deposited data

Results flagged for a closer look

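Of the genes followed from the vehicle to the IL-1α arrays, 3 had a phenotype difference in one pair that was absent or opposite in the other. Cxcl2 was 1.43 higher in M2 than in M1 under IL-1α and 1.62 lower under vehicle (-1.62). Ccl22 was 1.77 higher in M2 under IL-1α, where the vehicle arrays gave -0.03. H2-M2 gave 0.079 under IL-1α and -2.00 under vehicle. With 1 array per group the change of the difference was not tested in any of them. In all 3 the M1 arrays differed by less than 0.25 and the M2 array with IL-1α read above that with vehicle.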

How the results depend on the processing

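No paired analysis was possible because each group held 1 array and the result comes from no test. For the same reason no replicate could be left out. With a 1.5-fold threshold 1740 genes were higher and 1197 lower in M2 under IL-1α, and 1381 and 1126 of the vehicle differences were held. With a 4-fold threshold these counts were 258, 216, 209 and 207. A floor at the 75th percentile (9.635) gave 533 higher genes with 413 held, and asking both arrays to reach the floor gave 558 with 421 held. The other counts, and all counts with no floor, loess centring, a further quantile normalisation or the brightest probe set, stayed within 1.5 times. Over all these settings the share of vehicle differences held ran from 90.8% to 96.3% for genes higher in M2 and from 80.4% to 88.0% for genes lower in M2. The median of the eosinophil marker list, 1.36 over 2 genes at the floor, became -0.055 over all 5 with no floor. List medians depended on the floor more widely: of 43 lists, 18 besides it moved by over 0.115 with no floor (by up to 1.58, for the dendritic cell markers) and 19 of 38 with the floor at the 75th percentile (at most from 0.92 to 2.12, for the IL-4-linked transcription factors). Of all lists, 2 changed sign under each setting, the eosinophil list with no floor included. Of the 256 named genes, 1 changed sign with loess centring, 2 with a further quantile normalisation and 0 with the brightest probe set. The largest move was that of Socs2, by 1.87 with its brightest probe set. Among genes higher in M2 under IL-1α 296 of 854, and among lower ones 139 of 635, were under the floor on the dimmer array, which limits how well their sizes are known.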

Other observations

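Probe sets that the platform annotation gives to several genes or to none were left out of the gene counts, and their values are given here without names. Of 1621 rows with several genes, 794 reached the floor under IL-1α, of which 28 passed 2-fold upward in M2 and 56 downward, and 23 and 51 of these did so in both pairs. Of 12146 rows with no gene, 4773 reached the floor, with 88 higher and 302 lower in M2, and 62 and 161 did so in both pairs.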
